A study of Oryza sativa with 24 samples.

Results

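A block of neighbouring genes on chromosome 11 of rice was followed in the maturing seed of the accessions Gopum and Jowoon. Its members are all genes of the embryo or endosperm tables whose ID lies from OS11G0213000 to OS11G0241000 inclusive. This gave 46 of the 17780 genes measured in either tissue, with 43 of 16897 in the embryo tables and 34 of 14049 in the endosperm tables. Of the members, 31 were in the tables of both tissues, 12 were in the embryo tables only and 3 in the endosperm tables only. The block was selected on measured values, because genes that part the accessions in a fixed direction cluster there, and which tables entered that choice is not stated. The embryo values below are therefore a description. The endosperm values come from other libraries, but the endosperm direction of such genes over the whole series was known, so they are not independent support. The ID numbers follow the order along the chromosome, and the files give no coordinates, so neither the arm nor the distance between members was checked.

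Pre-harvest sprouting (PHS) is germination on the panicle before harvest. In the cereal grain, the embryo grows into the seedling, and dormancy keeps it from doing so while the grain matures. The endosperm is the starchy tissue that feeds it. Accessions of a crop carry different alleles in runs along each chromosome, since neighbouring genes are inherited together, and a comparison of accessions can therefore show groups of adjacent genes with large differences.

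Both accessions are japonica rice, given as wild type and grown in an experimental field, and no allele or treatment was applied to either. Gopum is the PHS susceptible accession and Jowoon the PHS resistant accession. Embryo and endosperm were taken at 3 stages, counted in days after heading (DAH), namely 30, 45 and 60 DAH. Pools of seeds from several plants gave the total RNA for the mRNA libraries. The labels give 24 libraries, which are 2 in each of 12 groups of accession, tissue and stage. The comparison of Jowoon with Gopum at a stage is called GJ30, GJ45 or GJ60.

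The tables give for each gene and comparison a log2 fold change, positive where Jowoon was higher, and a false discovery rate (FDR) adjusted over all genes of the table. They also give a mean log2 CPM, the average level of the gene over the libraries of a tissue in read counts scaled to library size (CPM). No value of a single library is in them, so levels in each accession and the spread between libraries cannot be shown, and the depth of the libraries is unknown. The tables give no error, so an implied standard error stands after ±. It is the error that a normally distributed estimate of that size would need to have the deposited p-value. A differentially expressed gene (DEG) has a fold change of at least 2 and an FDR of at most 0.05. The direction of the sign was checked on 403 genes that the study lists as higher or lower in Jowoon, and it held in 403 of them. No gene name or function was found for any member in the sources used here, so the members are described by ID and position.

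The tissue labels were checked on marker genes. The glutelin gene GluA-1 (OS01G0762500), a seed storage protein of the endosperm, had a mean log2 CPM of 16.84 in the endosperm and 9.28 in the embryo. The starch synthase gene Waxy (OS06G0133000) was in the endosperm tables only, at 8.79. The embryo homeobox genes OSH1 (OS03G0727000) and OSH15 (OS07G0129700) were in the embryo tables only, at 4.46 and 3.08. The markers VP1 (OS01G0911700) and 18 kDa oleosin (OS03G0699000) did not separate the tissues. VP1 had a mean log2 CPM of 5.97 in the embryo and 5.14 in the endosperm, and the oleosin had 9.95 and 9.89. RNA of the embryo or of the aleurone, which also makes oleosin, in the endosperm pools was not tested. In such bulk samples, fewer cells of a type and less RNA per cell cannot be told apart.

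The endosperm comparison at 30 DAH stands apart from the other comparisons. It held 0 DEGs among all genes by the authors' edgeR test, with a smallest FDR of 0.12 and 351 genes at an unadjusted p under 0.05. Outside the block, 310 genes were DEGs of a single direction at all 3 embryo stages, and 213 of them were in the endosperm tables. At GJ30, 40.8% of the 213 had the embryo sign, with a median of -0.13 when signed by the embryo direction. At GJ45 and GJ60 the shares were 85.4% and 77.9%, with medians of 1.41 and 0.99. The 30 DAH endosperm libraries thus do not show differences that the other stages and the embryo show, and whether their labels are right was not tested. The endosperm values below are given for GJ45 and GJ60 and, apart from them, for GJ30.

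The first question was how the difference between the accessions runs along the block in the embryo. Of the 43 embryo members, 9 were DEGs of a single direction at GJ30, GJ45 and GJ60, of which 3 were higher and 6 were lower in Jowoon. Among all embryo genes the share was 1.89%, with 0.840% higher and 1.05% lower, against 20.9% of the members. Such values chose the block, so nothing is read from this contrast of shares. The 9 genes are called constant members below. Along the chromosome they came in the order of 5 lower, 3 higher and 1 lower, which makes 3 runs of direction.

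The constant members did not spread over the whole block. They lay within a stretch of 17 tested genes, from the 20th to the 36th embryo member in ID order, and made up 52.9% of it. The stretch was set from the first to the last constant member. By definition, then, none lay among the 19 members before it or the 7 members after it. The medians of the stretch include the constant members, which were called for their differences, so nothing is read from the contrast of medians. In the stretch, the absolute log2 fold change had a median of 5.66, 3.76 and 6.14 in stage order. In the 19 members before it, the medians were 0.84, 0.75 and 0.77, and in the 7 members after it 0.49, 0.99 and 1.83. Those of all embryo genes were 0.60, 0.65 and 0.86.

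**Figure D1:**
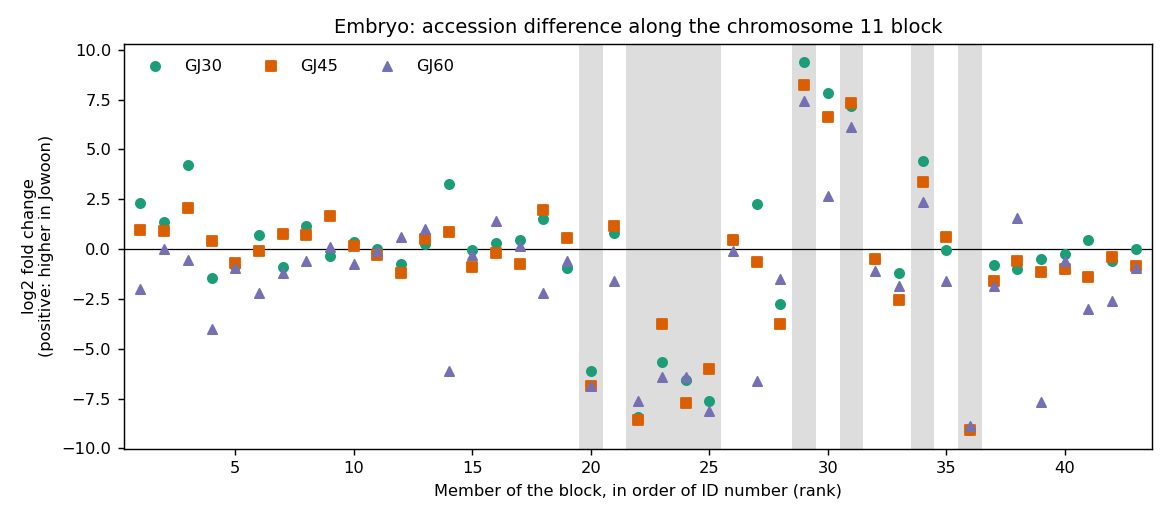
Log2 fold change between Jowoon and Gopum in the embryo (y axis, positive where Jowoon was higher) for the 43 embryo members in order of ID number (x axis, rank), with circles for GJ30, squares for GJ45 and triangles for GJ60. Grey bands mark the 9 constant members, which lie between rank 20 and rank 36, with 5 lower genes first, then 3 higher genes and a last lower gene.

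The stretch opened with 5 genes that were lower in Jowoon at every stage. OS11G0224900, the first of them, had log2 fold changes of -6.12 ± 1.56 at GJ30, -6.85 ± 1.48 at GJ45 and -6.88 ± 1.49 at GJ60. It ranged over 0.76 on the log2 scale, less than the implied error of a single stage. OS11G0225300, the next constant member, had -8.45 ± 1.08, -8.60 ± 1.10 and -7.63 ± 1.23, a range of 0.97.

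OS11G0226301 and OS11G0226400 are neighbours in the tables. OS11G0226301 had log2 fold changes of -5.66 ± 1.75, -3.76 ± 0.85 and -6.43 ± 1.67 in stage order. It had the widest range of the constant members, 2.67, and the highest FDR of any of them at any stage, 0.0102 at GJ30. OS11G0226400 had -6.59 ± 1.41, -7.71 ± 1.27 and -6.44 ± 1.62. OS11G0226700 closed the run with -7.62 ± 1.42, -6.00 ± 0.92 and -8.12 ± 1.34. All 5 genes were lower at each stage by more than 3 implied errors.

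Then 3 genes were higher in Jowoon. OS11G0227300 had log2 fold changes of 9.37 ± 0.94 at GJ30, 8.22 ± 1.10 at GJ45 and 7.43 ± 1.25 at GJ60, and 9.37 was the largest size among the constant members. OS11G0229000 had 7.16 ± 1.30, 7.35 ± 1.27 and 6.14 ± 1.58. The third gene differs from the others in its level.

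OS11G0233400 was the constant member with the highest mean log2 CPM, 5.62, and the smallest difference. Its log2 fold changes of 4.40 ± 0.40, 3.35 ± 0.36 and 2.34 ± 0.36 kept the sign and became smaller with each stage. Its difference at GJ60 was 2.06 lower than at GJ30 on the log2 scale.

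The last constant member was lower in Jowoon again. OS11G0235700 had log2 fold changes of -9.08 ± 0.95, -9.10 ± 0.98 and -8.87 ± 1.01, with a mean log2 CPM of 3.39. Its range of 0.22 was the narrowest of the 9. Over the constant members the median range across the embryo stages was 1.27, against 1.87 for the other 34 embryo members and 1.51 for all embryo genes. The constant members were defined by their embryo calls, so nothing is read from this contrast.

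The level of these genes is given beside the size of their differences. Of the 9, 7 had a mean log2 CPM under 3, and the median of the 9 was 2.65, equal to that of all embryo members and below the 3.87 of all embryo genes. In 8 of the 9 the difference was at least 8-fold at every stage. The tables do not give the reads of each accession. Where an accession has few or no reads, the size of a fitted fold change depends on the small count that such a model adds, and whether this holds for these genes was not tested. Their sizes are therefore given as deposited and not read as ratios of measured levels.

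Between the constant members lay genes that did not follow them. OS11G0226800, next to the run of lower genes, had log2 fold changes of 0.52, 0.47 and -0.12 and was a DEG at no stage. OS11G0225100, the 21st member, lay between constant members that were lower at all stages and had 0.79, 1.16 and -1.60. The difference between the accessions was thus not shared by adjacent genes throughout the stretch. These 2 genes show it, though OS11G0226800 was singled out after its values were seen.

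A few other members came close to the constant ones and were also chosen after their values were seen. OS11G0227600, between the higher genes OS11G0227300 and OS11G0229000, had log2 fold changes of 7.85 and 6.62 at GJ30 and GJ45, and 2.67 with an FDR of 1 at GJ60. OS11G0227100, just before them, was lower in Jowoon, at -2.75, -3.75 and -1.50, and missed the threshold at GJ60 with an FDR of 0.072. OS11G0229600 had -1.21, -2.57 and -1.86 and was a DEG at GJ45 alone. These genes kept their sign over the embryo stages without passing the threshold at each of them.

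**Figure D2:**
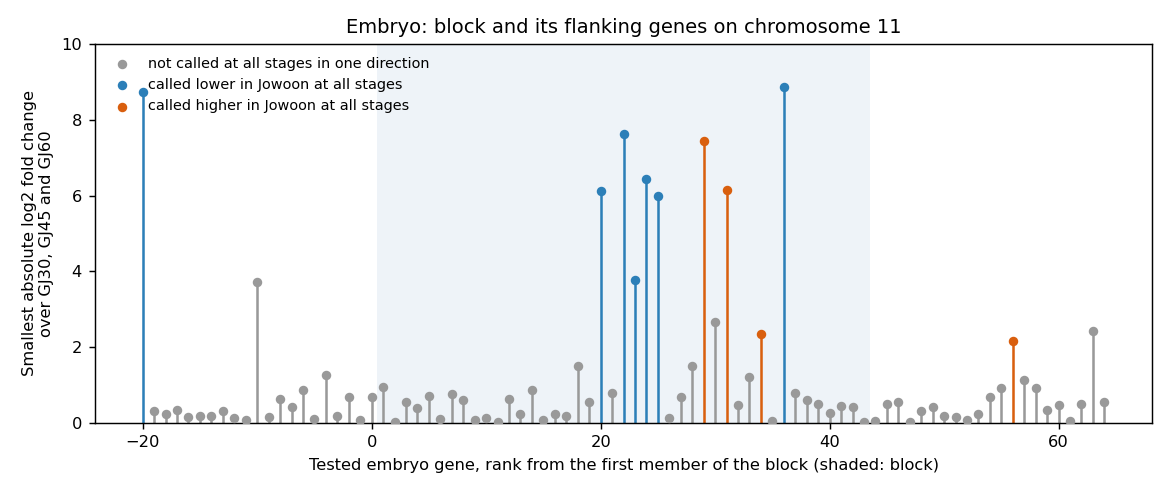
Smallest absolute log2 fold change over GJ30, GJ45 and GJ60 in the embryo (y axis) for 21 tested genes before the block, its 43 embryo members (shaded) and 21 tested genes after it, in ID order (x axis, rank from the first member). Blue marks genes lower and orange genes higher in Jowoon at all 3 stages, and 2 of the 42 flanking genes are coloured, against 9 of the 43 members.

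The borders of the block come from the ID range and not from a change in the values. The first embryo member, OS11G0213500, had log2 fold changes of 2.30, 0.94 and -1.99 at a mean log2 CPM of 0.91. The nearest tested gene before it, OS11G0211800, had -1.32, -0.69 and -1.39 at a mean log2 CPM of 12.06. At the other end, the last member, OS11G0240900, had 0.02, -0.85 and -0.97, and the nearest embryo gene after it, OS11G0241900, had -0.49, 0.21 and -0.05. In the endosperm tables the first member was OS11G0213700 and the nearest gene after the block was OS11G0241200, with -0.29, 0.54 and 0.32.

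Of the 42 flanking genes, 21 on each side, 2 were DEGs of a single direction at all embryo stages, which is 4.76%. Over the rest of chromosome 11 the share was 4.94%, or 41 of 830 genes. OS11G0206000, before the block, was lower in Jowoon with log2 fold changes of -8.74, -10.53 and -10.80, at GJ45 and GJ60 farther from 0 than any constant member. OS11G0246250, after the block, was higher with 2.15, 3.08 and 3.83.

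The other 34 embryo members are those without DEG calls of a single direction at all 3 stages. Of them, 23 were DEGs at some stage and 11 at none, and 12 kept the same sign at all 3 stages, 9 negative and 3 positive. Of all embryo genes, 31.3% kept the same sign at all 3 stages, so nothing is read from the 12. Over all 43 members, 32 (74.4%) were DEGs at some stage, where the share of all embryo genes was 53.7%. By stage, 16 members were DEGs at GJ30, 19 at GJ45 and 23 at GJ60, or 37.2%, 44.2% and 53.5%. The shares of all embryo genes were 17.6%, 21.5% and 35.3%. The counts over all 43 members include the constant members, which are DEGs at every stage by definition. Without them, the shares by stage were 20.6%, 29.4% and 41.2% of the 34.

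The balance of directions moved towards lower values in Jowoon at 60 DAH. At GJ30, 9 members were higher and 7 lower, with 8.30% and 9.34% of all embryo genes. At GJ45, 8 were higher and 11 lower, with 10.9% and 10.6% of all genes. At GJ60, 5 were higher and 18 lower, with 15.5% and 19.8% of all genes. The members had a median log2 fold change of -0.04 at the first stage, -0.28 at the second and -1.11 at the last, where that of all genes was -0.15. Without the constant members the GJ60 median was -0.97, and 26 of the 34 were negative, so the lower median at 60 DAH does not rest on the constant members. At GJ60 the median of the 21 genes before the block was -0.78, with 2 higher and 9 lower DEGs, and over the rest of chromosome 11 it was -0.35, with 101 higher and 198 lower. For the 21 genes after the block it was -0.15, with 4 higher and 5 lower. The block was chosen on values of this kind, and nothing further is read from the counts.

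In 3 members the embryo DEG calls had opposite directions at different stages, or 6.98% of the 43, with 7.82% of all embryo genes. OS11G0220400 was higher in Jowoon at GJ30 with 3.29 (FDR 0.00188), had 0.87 at GJ45, and was lower at GJ60 with -6.10 (FDR 6.319e-04). OS11G0223201 was higher at GJ45 with 1.96 and lower at GJ60 with -2.21. OS11G0225100, named above, was higher at GJ45 with 1.16 and lower at GJ60 with -1.60. All 3 turned from higher to lower in Jowoon. OS11G0237600, chosen after its values were seen, had -0.49, -1.17 and -7.69 and was lower at GJ45 and GJ60. OS11G0213800, also chosen so, had 4.20, 2.06 and -0.55 and was higher at GJ30 and GJ45.

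The 3 most abundant members had log2 fold changes between -0.77 and 1.39 in the embryo. OS11G0220800 had the highest mean log2 CPM in both tissues, 9.39 in the embryo and 6.54 in the endosperm. Its embryo log2 fold changes were 0.33, -0.22 and 1.39, and it was a DEG at GJ60 alone (FDR 3.241e-07). OS11G0217500 followed at 6.37 in the embryo, with 0.37, 0.13 and -0.77. OS11G0216900, at 6.35, had 1.15, 0.69 and -0.59 and was a DEG at GJ30 alone. The same 3 genes led in the endosperm, where OS11G0216900 had a mean log2 CPM of 5.73 and OS11G0217500 of 4.86. None of the 3 was a DEG in the endosperm, and their log2 fold changes there lay between -0.74 and 0.29.

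The next question was which directions these genes had in the endosperm, given with the deposited FDRs and not as independent support for the embryo values. At GJ45, 6 of the 34 endosperm members were DEGs (17.6%), 3 higher and 3 lower in Jowoon. Of all endosperm genes, 1.61% were DEGs at GJ45, 0.826% higher and 0.783% lower. At GJ60 the same 6 members were DEGs in the same directions, where 1.53% of all genes were, 0.783% higher and 0.747% lower. These 6 are the 6 constant members that the endosperm tables hold, and each had its embryo sign at both stages. For comparison, of the 213 constant embryo genes elsewhere, 24.9% were DEGs of the embryo direction in the endosperm at GJ45 and 25.4% at GJ60. These genes were not matched to the members in the size of their embryo difference. Of the 9 constant members, 8 were at least 8-fold at every embryo stage. Of the 319 such genes of the whole series, the block included, 96 were. Nothing is therefore read from the contrast.

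**Figure D3:**
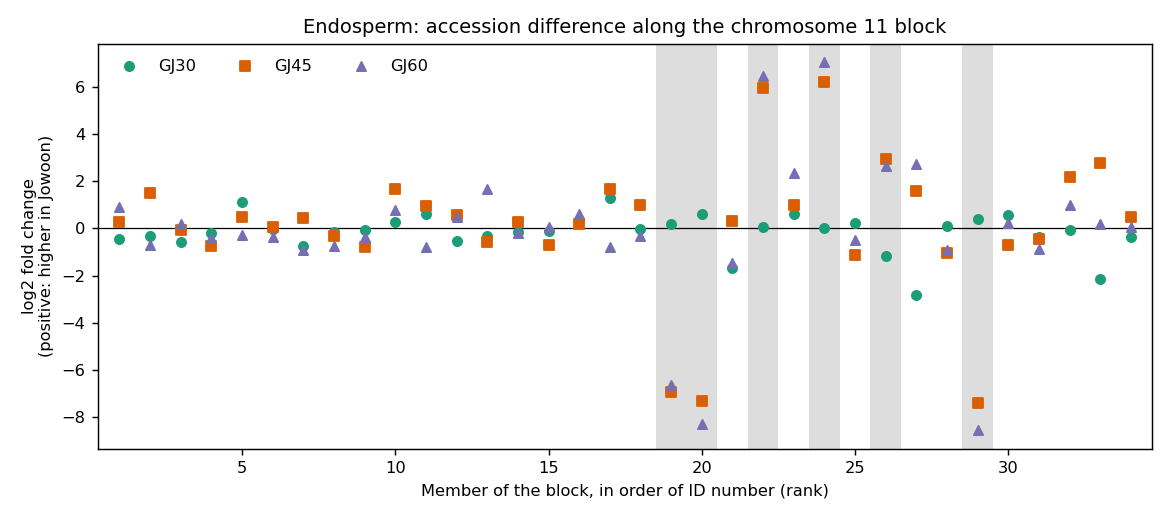
Log2 fold change between Jowoon and Gopum in the endosperm (y axis, positive where Jowoon was higher) for the 34 endosperm members in order of ID number (x axis, rank among the endosperm members), with circles for GJ30, squares for GJ45 and triangles for GJ60. Grey bands mark the 6 constant members of the embryo, whose squares and triangles lie at 2.64 or more from 0 while their circles lie at 1.18 or less.

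In the endosperm, 3 of these genes were lower in Jowoon. OS11G0225300 had log2 fold changes of -6.92 ± 1.55 at GJ45 (FDR 0.0016) and -6.61 ± 1.60 at GJ60 (FDR 0.00515). OS11G0226700 had -7.32 ± 1.44 (FDR 1.190e-04) and -8.30 ± 1.29 (FDR 7.821e-08). OS11G0235700 had -7.41 ± 1.61 (FDR 9.142e-04) and -8.55 ± 1.48 (FDR 3.998e-06). These genes were lower in both tissues at 45 and 60 DAH.

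The other 3 were higher in Jowoon. OS11G0227300 had log2 fold changes of 5.96 ± 1.75 at GJ45, where its FDR of 0.0431 lay close to the threshold, and 6.47 ± 1.62 at GJ60 (FDR 0.0082). OS11G0229000 had 6.18 ± 1.70 (FDR 0.0232) and 7.03 ± 1.49 (FDR 5.396e-04). OS11G0233400 had 2.93 ± 0.71 (FDR 0.00501) and 2.64 ± 0.70 (FDR 0.0172). In the endosperm too it had the highest level of the 6, with a mean log2 CPM of 3.40, and the smallest difference. The other 5 had a mean log2 CPM under 3, so that their printed sizes carry the same limit as in the embryo. The FDRs come from the authors' edgeR fit.

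The constant members OS11G0224900, OS11G0226301 and OS11G0226400 were not in the endosperm tables, so their direction there is not known. Their mean log2 CPM in the embryo was 1.38, 1.37 and 1.66. Of the embryo members, 72.1% were also in the endosperm tables, against 77.9% of all embryo genes. How the authors set the limit for a gene to enter the tables is not given in the sources used here.

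The remaining 28 endosperm members held 0 DEGs at GJ45 and 0 at GJ60 by the edgeR test, with 2 members at an unadjusted p under 0.05 at each stage. Of all 14049 endosperm genes, 1608 had such a p at GJ45 and 1226 at GJ60. Their smallest FDR was 0.351 at GJ45 and 0.295 at GJ60. Their log2 fold changes lay between -1.13 and 2.77 at GJ45 and between -1.48 and 2.71 at GJ60. OS11G0227600, so large in the embryo at GJ30 and GJ45, had 0.99 and 2.33 in the endosperm. The 3 members found only in the endosperm tables are in this group. OS11G0219400 had log2 fold changes of -0.53, 0.56 and 0.50 in stage order. OS11G0234100, the member with the lowest endosperm level, had -2.82, 1.58 and 2.71, and OS11G0239500 had -0.06, 2.19 and 0.98.

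At 30 DAH the endosperm showed a different picture. None of the 34 members was a DEG (0% of all endosperm genes), and 2 members had an unadjusted p under 0.05, neither of them a constant member. Of all 14049 endosperm genes, 351 had such a p at GJ30. Of the 6 constant members, 2 had the embryo sign and 0 reached a fold change of 2 in that direction. Their log2 fold changes were 0.17 ± 1.58 for OS11G0225300, 0.60 ± 0.66 for OS11G0226700 and 0.39 ± 1.54 for OS11G0235700, which were all lower in the embryo. They were 0.04 ± 1.69 for OS11G0227300 and 0.03 ± 1.59 for OS11G0229000. For OS11G0225300, OS11G0227300, OS11G0229000 and OS11G0235700 this error is the median from the other stages. OS11G0233400 had -1.18 ± 0.65, against its sign elsewhere. The constant gene before the block, OS11G0206000, had 0.50 at GJ30, -7.36 at GJ45 and -8.98 at GJ60, so the same 3-stage pattern lay outside the block.

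**Figure D4:**
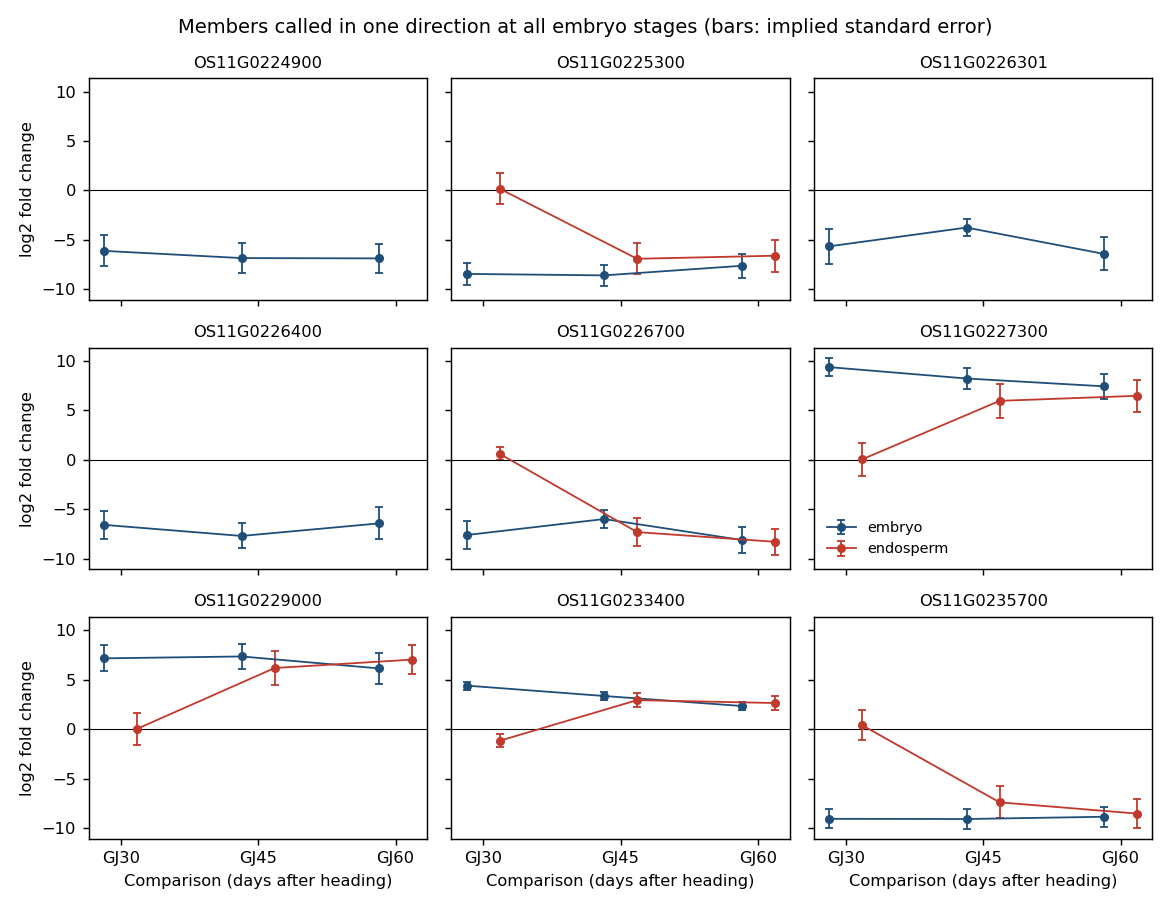
Log2 fold change between Jowoon and Gopum (y axis, positive where Jowoon was higher) at GJ30, GJ45 and GJ60 (x axis) for each of the 9 constant members, with blue for embryo and red for endosperm and bars for the implied standard error. In the 6 genes with red points, the endosperm values have the embryo sign at GJ45 and GJ60 and lie between -1.18 and 0.60 at GJ30.

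Constancy over the stages was then examined for every member, by setting the change in its log2 fold change from stage to stage against the implied errors of both stages, two-sided and with adjustment over all genes of the tissue. In the endosperm, 33 members had values for this test. Between 30 and 45 DAH, 2 of them changed their difference (6.06%), with 0.840% of all genes, and between 30 and 60 DAH 3 did (9.09%), with 0.478% of all genes. Both counts hold constant members only, whose endosperm direction was known, so nothing is read from these contrasts of shares. Both also rest on the 30 DAH libraries described above. Without those libraries, between 45 and 60 DAH, 0 of the 33 members changed by this test, with 0 at an unadjusted p under 0.05 and 0.0617% of all genes called.

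OS11G0226700 changed by -7.92 ± 1.58 on the log2 scale from 30 to 45 DAH (adjusted p = 3.375e-04) and by -8.90 ± 1.45 from 30 to 60 DAH (adjusted p = 8.466e-07). OS11G0233400 changed by 4.12 ± 0.96 (adjusted p = 0.00612) and by 3.82 ± 0.96 (adjusted p = 0.0171). OS11G0235700 changed by -8.94 ± 2.14 from 30 to 60 DAH (adjusted p = 0.00811), and its -7.80 ± 2.23 from 30 to 45 DAH missed the threshold (adjusted p = 0.0522). OS11G0226700 and OS11G0235700 moved from values within 1 implied error of 0 at GJ30 to the embryo direction. OS11G0233400 moved to that direction from -1.18 ± 0.65 at GJ30. Its unadjusted p there was 0.0707 by the authors' edgeR test, so an opposite difference at GJ30 is not shown.

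The other 3 did not pass this test at either interval. OS11G0225300 had a difference of -7.09 ± 2.21 from 30 to 45 DAH (adjusted p = 0.0975) and OS11G0229000 had 6.15 ± 2.33 (adjusted p = 0.277). OS11G0227300 had 5.93 ± 2.43 (adjusted p = 0.344). Their implied errors are wide, so the missed threshold does not show that their differences stayed the same. From 45 to 60 DAH the differences of the 6 genes lay between -1.14 and 0.86, with implied errors of up to 2.39. A change of several log2 units could therefore have been missed.

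In the embryo, as a description, the difference of 1 member changed between 30 and 45 DAH (2.33%), with 4.60% of all embryo genes. Between 30 and 60 DAH 17 changed (39.5%), with 30.9% of all genes, and between 45 and 60 DAH 14 did (32.6%), with 34.5%. OS11G0233400 is the constant member among the 17. The constant members were defined by their embryo directions and most have wide implied errors, so nothing is read from how the counts fall between them and the other members. The members had a median implied error of 0.63, 0.54 and 0.63 in stage order, wider than the 0.46, 0.44 and 0.45 of all embryo genes.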

How the data were processed

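The authors' methods name Trimmomatic for read trimming, HISAT2 for alignment to the IRGSP rice reference genome, featureCounts for read counts per gene, and the trimmed mean of M-values for the normalisation of CPM. The accessions were compared by the authors with edgeR at each stage, and whether the stages of a tissue shared a fit is not stated. FastQC is also named in the submitters' processing notes. The deposited tables, 1 for each of 2 tissues and 3 stages, hold the authors' log2 fold change, mean log2 CPM, p-value and FDR, and these were used because the members are defined by them. The planned test on counts was not run, since the tables hold none. The methods of the study name more replicates than the labels, which give 2 libraries per group, and nothing says which entered a comparison. The p-values measure the spread between the libraries that entered the fit, which may be technical. Reads of both accessions were aligned to a single reference, and how near-identical gene copies and the sequence of each accession affected the counts was not tested.

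Recomputed from the deposited p-value by the Benjamini-Hochberg method, the FDR was the same as deposited, and each gene had a single mean log2 CPM over the 3 tables of its tissue. Of 17780 IDs, 0 matched the RefSeq table, so the planned grouping by product could not be applied. The implied standard error is the absolute log2 fold change over the two-sided normal quantile of the p-value, and needs a normal quantile of at least 0.5. Otherwise the median of the gene over the tables of the tissue was used. Changes between stages were tested two-sided with Benjamini-Hochberg adjustment over all genes with errors, a normal approximation whose code was tested on simulated data, which does not show its error rate in these tables. Named are members called in a single direction at all embryo stages, members called in the endosperm, the 3 most abundant in each tissue, the border genes, and members with opposite calls. Members and lists were chosen with earlier results of these data known, among them the endosperm direction of constant genes over the whole series. Alternatives were another fold or FDR threshold, a minimum of 3 in mean log2 CPM, removal of each table's median, joint adjustment of 3 tables, a t quantile and other flanks. Python 3.11.15, pandas 2.3.3, numpy 2.4.6, scipy 1.17.1 and matplotlib 3.10.9 were used.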

Additional observations from a re-analysis of the deposited data

Results flagged for a closer look

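The difference between the accessions was not the same at all stages in some members of the block, by the test of the difference between 2 stages. In the embryo this held for 1 member between 30 and 45 DAH (2.33%, with 4.60% of all embryo genes). Between 30 and 60 DAH it held for 17 (39.5%, with 30.9%), and between 45 and 60 DAH for 14 (32.6%, with 34.5%). The embryo counts are a description, since the block was chosen on measured values. In the endosperm it held for 2 members between 30 and 45 DAH (6.06%, with 0.840% of all endosperm genes). Between 30 and 60 DAH it held for 3 (9.09%, with 0.478%). Nothing is read from these contrasts of shares. OS11G0226700 changed in the endosperm by -7.92 and -8.90 on the log2 scale from 30 DAH to 45 and 60 DAH. OS11G0233400 changed by 4.12 and 3.82, and OS11G0235700 by -8.94 from 30 to 60 DAH. All the endosperm values rest on the 30 DAH libraries, in which no gene of the series was a DEG.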

How the results depend on the processing

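The 9 constant members and the 6 endosperm DEGs at GJ45 and at GJ60 were again 9, 6 and 6 with a fold change of at least 4 and with each table's median taken off. At an FDR of at most 0.01 they were 8, 4 and 5. OS11G0226301 was lost in the embryo, OS11G0227300 and OS11G0229000 at GJ45, and OS11G0233400 at GJ60. With the p-values of 3 tables adjusted together they were 9, 5 and 6, and GJ30 stayed at 0. With members of a mean log2 CPM of at least 3 only, 2 constant members and 1 endosperm DEG at each of GJ45 and GJ60 were left, by construction, and the constant members with the embryo sign in the endosperm were 0, 1 and 1 at GJ30, GJ45 and GJ60. Under that minimum the members that changed between stages were 8 (embryo, 30 to 60 DAH), 6 (embryo, 45 to 60 DAH), 1 (endosperm, 30 to 45 DAH) and 1 (endosperm, 30 to 60 DAH). With no FDR threshold, 6 endosperm members passed a fold change of 2 at GJ30. A t quantile gave 4 changed members in the embryo and 4 in the endosperm between 30 and 45 DAH, and 20 in place of 14 in the embryo between 45 and 60 DAH. The cause of these shifts was not tested. With 20 flanking genes on each side, 1 constant gene was left in the flanks, because OS11G0206000, the farthest gene before the block, fell outside.

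No paired analysis was possible because the tables hold no values of single libraries. For the same reason leaving out a replicate, another normalization and a filter on counts were not run. The unknown depth limits what a missing call shows, most of all for members with a mean log2 CPM under 3.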
